A study of Mus musculus with 2 samples.

Results

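The 9 genes *Avil*, *Vil1*, *Espn*, *Dclk1*, *Ptgs1*, *Hpgds*, *Alox5ap*, *Sucnr1* and *Chat* mark the chemosensory tuft cells of gut and airway and lie outside the taste transduction cascade. They were chosen by name, and their values were compared between 2 mouse tongue tissues. Each of the 9 had 1 row among the 18498 rows of the table, of which 18043 carried a gene symbol. The circumvallate papillae (CvP), the taste bud bearing folds at the back of the tongue, were compared with lingual epithelium without taste papillae (Epi). RNA came from C57BL/6J mice, with tissue of at least 20 mice pooled for each library, and both groups shared this strain. An age range of 12 to 30 weeks was taken for both groups. The paper states this range and male sex for its RT-PCR of CvP, and normal chow for the upkeep of its mice. Its sequencing methods do not repeat them. Poly(A)+ RNA gave 1 library per tissue, so neither tissue had a replicate and no test between them was possible. The spread between animals or dissections is therefore unknown, and each interval given here covers the counting error of reads alone. The spacing of the lowest values gave a depth of about 28421050 mapped reads for CvP and 27960244 for Epi.

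Tuft cells are scattered epithelial cells with a tuft of long microvilli that are packed with actin bundles. Many of them use the transduction proteins of sweet, umami and bitter taste, among them the G protein gustducin (*Gnat3*) and the channel *Trpm5*, and in the gut they respond to succinate and to parasites. They release cytokine, eicosanoids and acetylcholine, and the taste bud's type II cell, which detects sweet, umami and bitter compounds, arises under the same transcription factor, *Pou2f3*. In the rest of the body most of the 9 genes are not private to tuft cells. Villin is a protein of every intestinal brush border, espin is best known from the hair cells of the inner ear, and the eicosanoid genes are used by mast cells, macrophages and platelets.

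The genes of the actin core stood far above epithelium in the papillae, and the eicosanoid genes differed in both directions. *Dclk1*, *Sucnr1* and *Chat* were low in both libraries, on about 76, 8 and 50 reads in CvP. Levels are given as RPKM, read counts scaled to the exon length of the gene and to the mapped reads of the library. In CvP they were 83.5 for *Avil*, 31.3 for *Vil1* and 11.4 for *Espn*, against 2.18, 0.03 and 0.37 in Epi. *Ptgs1* went the other way, with 8.43 in CvP and 20.1 in Epi. *Dclk1*, the usual marker of tuft cells, had an RPKM of 0.34 in CvP and 0.01 in Epi. In pooled tissue, fewer cells of a type and less RNA per cell cannot be told apart, and this applies to every difference described here.

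The study asked for an RPKM over 10 in CvP that was also over 3 times the Epi value. *Avil*, *Vil1* and *Espn* met both criteria, 3 of the 9 genes, while 435 or 2.35% of all rows did. The paper gives a larger count of genes for these criteria, which the deposited values did not reproduce. The cause of this difference was not tested. None of the 9 met the same criteria in the direction of Epi, which 0.6% of rows met. Without a minimum level, 7 of the 9 had a ratio above 3, where 25.4% of all rows did. Of the remaining pair, *Sucnr1* stood at 3 on 8 and 3 reads and *Ptgs1* was lower in CvP. The median log2 ratio of the 9 genes, computed with 0.1 added to both RPKM values, was 2.59, and that of all rows was 0.49. This median is the value of *Hpgds*. It stays at 2.59 when *Chat*, which had no reads in Epi, is set at its lower bound, because *Chat* lies above *Hpgds* either way. Genes read at an RPKM of 1 or more in CvP, Epi or both are called expressed here, and 6 of the 9 were. Of these 6, 5 were higher in CvP by any margin and by over 3-fold, where 78.1% of expressed rows were higher by any margin and 15.9% by over 3-fold, and none was over 3-fold lower, where 1.96% were. The 9 log2 ratios ran from -1.25 for *Ptgs1* to 7.92 for *Vil1*. Ratios in this table lay above 1 as a rule, with a median of 1.31 over the 10363 rows expressed in both libraries, a shift of 0.39 on the log2 scale. Divided by it, the ratios were 29.2 for *Avil*, 795 for *Vil1*, 23.4 for *Espn*, 25.9 for *Dclk1*, 5.71 for *Hpgds*, 3.36 for *Alox5ap*, 2.29 for *Sucnr1* and 0.319 for *Ptgs1*, so that each of these kept its direction. Ratios between 1 and this median, such as those of *Gsn*, *Pla2g4a* and *Ltb4r1*, turn to below 1 when divided by it.

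**Figure D1:**
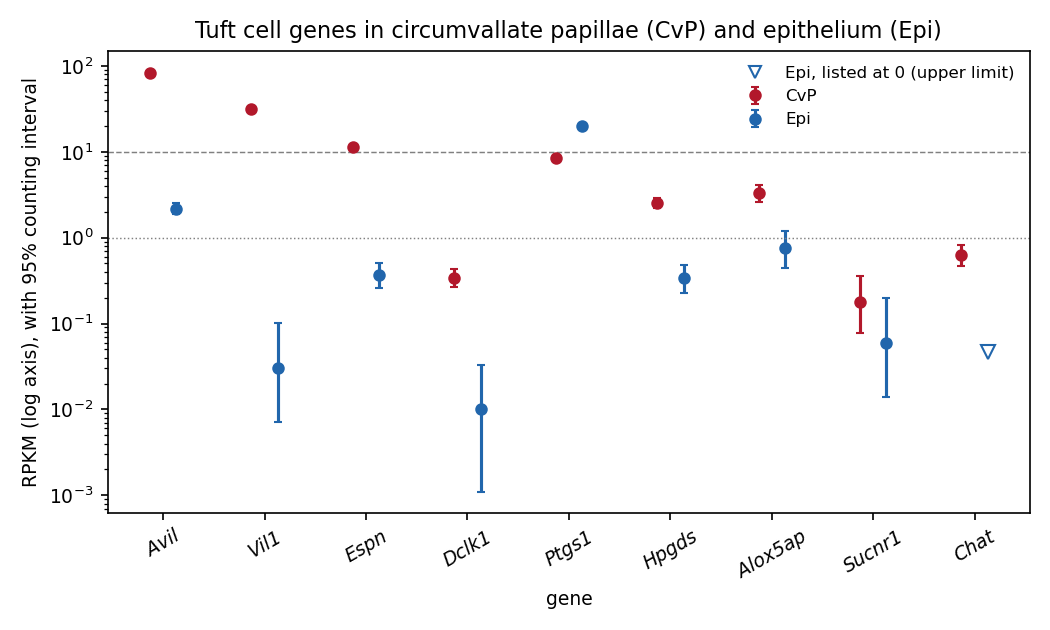
RPKM of the 9 genes in the CvP library (red) and the Epi library (blue) on a log axis, with 95% exact Poisson intervals for counting error and an open triangle where a gene was listed at 0. *Avil*, *Vil1* and *Espn* stand at 11.4 to 83.5 in CvP, *Ptgs1* is the only gene with the Epi point above the CvP point, and *Chat* has no reads in Epi.

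The upstream sequences of 4 genes are shown, those of *Avil* and *Vil1* because these were the highest of the 9 in CvP and those of *Hpgds* and *Sucnr1* because they hold the octamer described next. RefSeq (GRCm38.p6) listed 11 start sites for 8 of the 9 genes, 3 of them for *Espn* and 2 for *Dclk1*. Each sequence holds the 250 bases before the start in the direction of the gene. It matched NCBI37/mm9 at 1 place on the chromosome and strand of its gene, and no other chromosome or strand was searched. That place is chr10:126437515-126437764 (plus strand) for *Avil*, chr1:74455708-74455957 (plus strand) for *Vil1*, chr6:65094725-65094974 (minus strand) for *Hpgds* and chr3:59885541-59885790 (plus strand) for *Sucnr1*. Capitals mark the octamer ATGCAAAT, the motif that POU factors such as POU2F3 bind, and the GC box GGGCGG, each searched on both strands (reverse complements ATTTGCAT and CCGCCC).
Avil: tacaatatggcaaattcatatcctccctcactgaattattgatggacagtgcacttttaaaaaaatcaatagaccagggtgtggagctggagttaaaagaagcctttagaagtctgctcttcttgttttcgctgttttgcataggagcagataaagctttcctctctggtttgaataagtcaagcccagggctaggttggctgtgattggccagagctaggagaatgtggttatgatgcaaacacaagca
Vil1: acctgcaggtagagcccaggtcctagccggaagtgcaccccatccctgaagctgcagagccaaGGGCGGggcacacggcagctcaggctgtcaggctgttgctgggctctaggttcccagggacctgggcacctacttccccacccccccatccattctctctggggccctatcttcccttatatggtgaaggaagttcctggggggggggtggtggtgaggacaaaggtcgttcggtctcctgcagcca
Hpgds: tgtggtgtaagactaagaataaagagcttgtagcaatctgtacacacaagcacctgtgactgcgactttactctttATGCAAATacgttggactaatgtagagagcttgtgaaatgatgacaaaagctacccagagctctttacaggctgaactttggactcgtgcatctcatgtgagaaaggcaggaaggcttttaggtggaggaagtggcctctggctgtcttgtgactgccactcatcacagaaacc
Sucnr1: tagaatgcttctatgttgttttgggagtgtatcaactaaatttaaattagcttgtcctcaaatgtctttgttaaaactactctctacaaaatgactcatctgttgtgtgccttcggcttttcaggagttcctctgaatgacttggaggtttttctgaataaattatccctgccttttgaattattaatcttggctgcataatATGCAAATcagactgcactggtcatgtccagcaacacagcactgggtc

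The octamer occurred in 2 of the 11 sequences, 174 to 167 bases before the start of *Hpgds* and 48 to 41 bases before that of *Sucnr1*. Of all 32851 RefSeq upstream sequences of this length, 526 or 1.6% held it. The GC box occurred in 3 of the 11, that of *Vil1* and 2 of *Espn*, against 32.7% of all. No exact copy of either motif was found before the start of *Avil*, which was the highest of the 9 genes in CvP. Base composition differed widely, with 62.8% G and C before *Vil1* and 42.0% before *Avil*, where the median of all sequences was 52.4%. A match to these letters is a description of the sequence and was not tested as a binding site.

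The actin genes were the highest of the group. *Avil* encodes advillin, a gelsolin family protein that caps and severs actin filaments. Its row spans chr10:126437765-126458050 on the plus strand, and its longest coding transcript has 20 exons. The CvP RPKM was 83.5 (95% interval 81.6 to 85.5, about 7200 reads) and the Epi RPKM 2.18 (1.88 to 2.52, 185 reads). The ratio was 38.3 (33.1 to 44.5). Of all rows, 97.2% had a lower level in CvP and 51.6% a lower level in Epi, so *Avil* was among the most abundant transcripts of the papilla and near the middle of the epithelium. Its exons share 165 bases with *Tsfm*, a mitochondrial translation factor gene on the opposite strand with an RPKM of 8.60 in CvP and 8.02 in Epi. The library kit is not stated to keep the strand, and reads of the shared bases could belong to either gene.

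*Vil1* encodes villin, which bundles the actin of microvilli. The row lies at chr1:74455958-74482134 on the plus strand. An RPKM of 31.3 (30.2 to 32.5, about 2781 reads) was measured in CvP and of 0.03 (0.00708 to 0.1, about 3 reads) in Epi. The ratio of 1044 rests on those few Epi reads, 3 by the transcript length and 8 by the deposited length of the gene, and its interval ran from 312 to 4425, or from 516 to 2356. In the papilla *Vil1* thus stood above 90.4% of rows, and in the epithelium it was at the limit of detection. The row shares 51 bases with *Usp37* on the opposite strand, a deubiquitinase gene with an RPKM of 4.83 in CvP and 2.68 in Epi.

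*Espn* encodes espin, which cross-links actin filaments into tight parallel bundles. The row covers chr4:151494985-151526316 on the minus strand. Its RPKM was 11.4 in CvP (10.7 to 12.1, about 1164 reads) and 0.37 in Epi (0.259 to 0.507, 37 reads), a ratio of 30.8 (22.3 to 44.2). The CvP level passed the study's minimum of 10 by a narrow margin and did not pass once CvP levels were divided by the median ratio of 1.31. The RPKM sums all transcripts of the locus, and the isoforms from its 3 start sites could not be separated.

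Other genes of the actin bundle and of the villin and gelsolin family did not move as a block. Of 29 such genes that were expressed, 8 were more than 3-fold higher in CvP and none more than 3-fold lower, against the 15.9% and 1.96% of expressed rows. Their median log2 ratio was 0.61, close to the 0.50 of all expressed rows. The villin-like gene *Vill* had an RPKM of 12.4 in CvP and 0.19 in Epi, a ratio of 65.3 (40.6 to 121). Fascin (*Fscn1*), another bundling protein, stood at 48.9 and 0.23, and plastin 1 (*Pls1*), the bundler of the intestinal brush border, at 9.67 and 0.04. Lower ratios were found for *Lcp1*, the plastin of leukocytes, with 21.3 against 1.06, for supervillin (*Svil*) with 15.4 against 4.41 and for *Eps8*, which regulates microvillus length, with 8.30 against 1.32. Members of the gelsolin family thus differed among themselves, as gelsolin (*Gsn*) had a ratio of 1.22 at an RPKM of 210.35 in CvP and scinderin (*Scin*) a ratio of 2.84 at 6.73. The espin-like gene *Espnl* was near 0 in both, with 0.06 and 0.04.

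The genes that tie brush border microvilli together in the gut were nearly unread. *Cdhr2*, *Cdhr5* and *Ush1c* had CvP RPKM values of 0.02, 0.03 and 0, and each was listed at 0 in Epi. The microvillar motor genes were low but higher in CvP. *Myo1a* had 0.25 against 0.01, on 24 reads against 1, and *Myo7b* had 0.19 against 0, on 36 reads against 0. Among markers of enterocytes, which express villin in the gut, *Slc5a1* had 34.9 in CvP and 33.3 in Epi, *Anpep* 26.8 and 15.0 and *Slc15a1* 7.81 and 21.5. None of these 3 expressed markers was more than 3-fold higher or lower, where 15.9% and 1.96% of expressed rows were. *Cdh17* and *Apoa1* were listed at 0 in both and the list summed to 70.0 in CvP and 70.4 in Epi. Markers of hair cells, which express espin in the ear, summed to 8.83 and 10.9. *Otof* was listed at 0 in both libraries, *Slc17a8* and *Myo15* had 0.05 and 0.02 in CvP, and *Cib2*, the single expressed marker, had 8.76 in CvP and 10.8 in Epi.

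**Figure D2:**
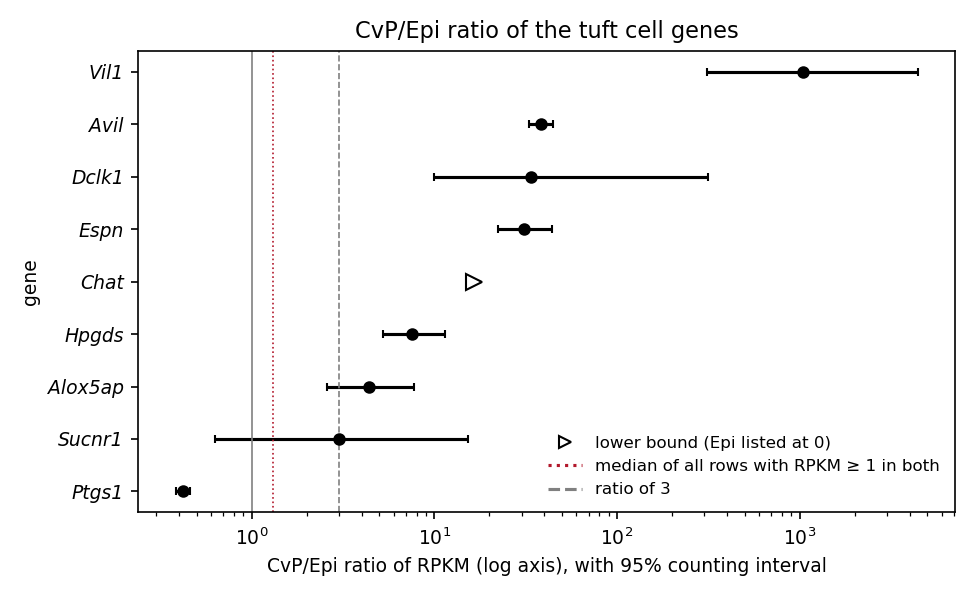
CvP/Epi ratio of the 9 genes on a log axis with 95% Clopper-Pearson intervals for counting error, an arrow where only a lower bound can be given, and lines at ratios of 1 and 3 and at the median of 1.31 over all rows expressed in both libraries. *Avil*, *Espn* and *Dclk1* lie near 30 to 38, *Vil1* lies at 1044 with the upper limit at 4425, the interval of *Sucnr1* crosses 1 and *Ptgs1* lies below 1.

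*Dclk1* encodes a microtubule-binding kinase of the doublecortin family and is the common histological marker of tuft cells in the gut. It spans chr3:55046448-55342990 on the plus strand. Its RPKM was 0.34 in CvP (0.268 to 0.427, about 76 reads) and 0.01 in Epi (0.0011 to 0.0329, about 2 reads), a ratio of 34.0 (9.999 to 314). Since the deposited values carry 2 decimals, rounding alone allows a ratio of 22.3 to 69.0. The ratio was thus of the size of that of *Avil* and *Espn*, and the interval of *Dclk1* covers both. The level was not, as no more than 23.4% of rows lay below it in CvP. RefSeq lists a second start far inside the gene, which yields a shorter protein with the kinase domain, and the row sums reads of both. Its paralog *Dclk2* was higher, with 3.63 in CvP and 0.02 in Epi (ratio 182, 57.1 to 1720). *Dcx* had 0.21 in CvP and was listed at 0 in Epi, and *Dclk3* was at 0.02 and 0. Of the doublecortin family 2 other genes were expressed, *Dclk2* and *Dcdc2b*, and the latter differed little with 1.87 and 1.5.

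Of the 9 genes, 3 belong to the synthesis of eicosanoids, lipid mediators that are made from arachidonic acid, and they did not share a direction. *Ptgs1* encodes cyclooxygenase 1, which makes the common precursor of the prostaglandins. It lies at chr2:36085946-36107789 on the plus strand. The RPKM was 8.43 in CvP (7.81 to 9.09, about 687 reads) and 20.1 in Epi (19.2 to 21.1, about 1613 reads), and the level was 2.39-fold higher in Epi (2.18 to 2.61). *Ptgs1* was the highest of the 9 genes in Epi and made up 84.3% of their summed RPKM there. The inducible cyclooxygenase *Ptgs2* stood lower and in the other direction, with 0.62 in CvP and 0.16 in Epi (ratio 3.88, 2.26 to 6.63).

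*Hpgds* encodes the hematopoietic prostaglandin D synthase of mast cells, some lymphocytes and tuft cells. The row lies at chr6:65067287-65094724 on the minus strand. It was read at 2.55 in CvP (2.24 to 2.89, about 239 reads) and 0.34 in Epi (0.228 to 0.477, about 31 reads), a ratio of 7.5 (5.20 to 11.4). The lipocalin-type synthase *Ptgds* was listed at 0 in CvP and at 0.05 in Epi. Receptors for prostaglandin D were hardly read, with *Ptgdr* at 0.02 and 0 and *Gpr44* (*Ptgdr2*) at 0.03 and 0.04.

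*Alox5ap* encodes FLAP, the membrane protein that hands arachidonic acid to the lipoxygenase of leukotriene synthesis. It lies at chr5:150076634-150099623 on the plus strand. In CvP the RPKM was 3.31 (2.62 to 4.11, about 80 reads) and in Epi 0.75 (0.448 to 1.19, about 18 reads), a ratio of 4.41 (2.60 to 7.75). Its partners in the route to cysteinyl leukotrienes were higher in CvP as well. The lipoxygenase gene *Alox5* had 4.43 against 0.26 (ratio 17.0, 10.7 to 27.2), and the synthase *Ltc4s* had 12.7 against 0.06, which is 259 reads against 1 (ratio 212, 45.3 to 10102). *Lta4h*, which leads to the other leukotriene branch, differed little, with 26.9 and 19.3. The cysteinyl leukotriene receptors *Cysltr1* and *Cysltr2* stood at 0.13 and 0.06 in CvP.

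Of the eicosanoid list without the 3 genes, 28 genes were expressed. Of these, 6 were more than 3-fold higher in CvP, 3 were more than 3-fold lower and 19 lay between, where 15.9% of expressed rows were higher and 1.96% lower by that fold. Their median log2 ratio of 0.52 was close to that of all expressed rows. The higher ones were *Alox5*, *Ltc4s*, the phospholipase gene *Pla2g10* (1.48 in CvP, unread in Epi), the carbonyl reductase *Cbr2* and the prostaglandin E receptors *Ptger1* and *Ptger4*. *Cbr2* had the highest level of these, 213.84 in CvP and 24.9 in Epi. Lower in CvP were *Hpgd*, which inactivates prostaglandins, with 39.5 against 134.41, the aldo-keto reductase *Akr1c18* with 1.65 against 16.9 and the prostaglandin E receptor *Ptger3* with 1.20 against 7.99. *Ptges*, which makes prostaglandin E, had 29.1 in CvP and 12.2 in Epi, and *Pla2g4a*, which releases arachidonic acid, had 9.20 and 7.43. The leukotriene arm, *Alox5ap* with *Alox5* and *Ltc4s*, was therefore higher in CvP at each of these 3 genes, whereas the cyclooxygenase step was higher in Epi by the sum of *Ptgs1* and *Ptgs2*.

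**Figure D3:**
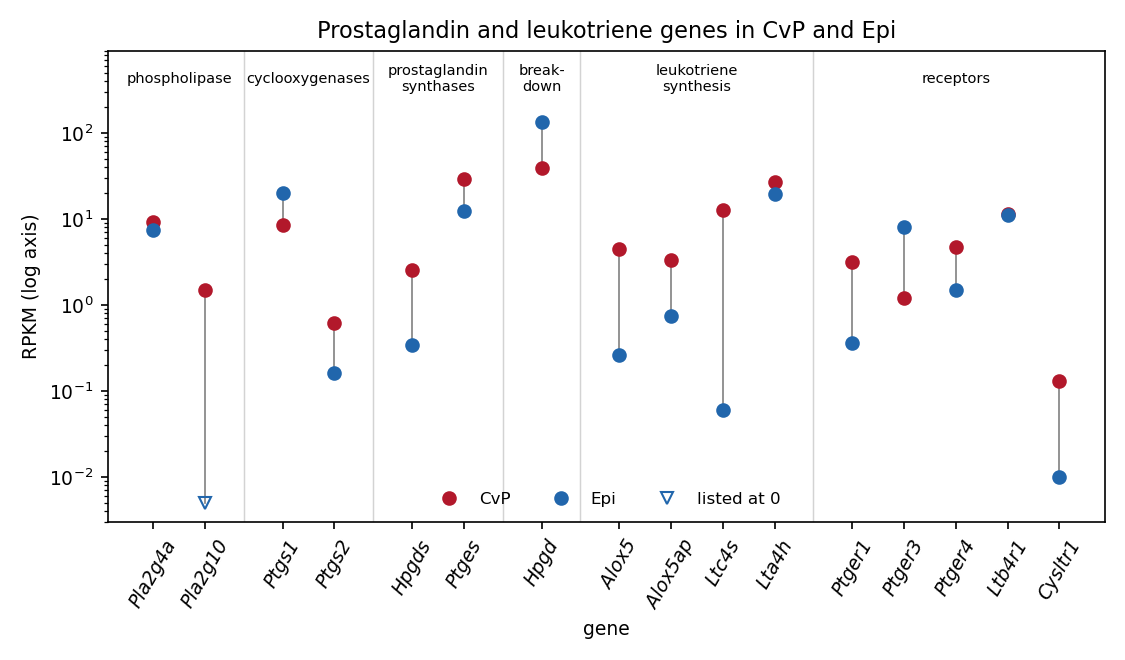
RPKM on a log axis of prostaglandin and leukotriene genes in CvP (red) and Epi (blue), ordered by step, with a line joining the values of a gene and a triangle where a gene was listed at 0. *Ptgs1*, *Hpgd* and *Ptger3* have the Epi point on top, *Alox5*, *Alox5ap* and *Ltc4s* have the CvP point on top, and *Ltb4r1* has nearly equal values of 11.4 and 11.2.

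Cells other than tuft-like cells carry the eicosanoid genes, and markers of some of them differed between the libraries too. Of 9 expressed macrophage markers, 8 were more than 3-fold higher in CvP, against 15.9% of expressed rows, and the list summed to 189 in CvP and 9.14 in Epi. *Lyz2* gave most of that sum with 131.64 against 0.43, followed by *Cd14* with 20.4 and *Cd68* with 10.8 in CvP. General leukocyte markers summed to 140 and 50.4, with 5 of 9 more than 3-fold higher, against the same 15.9%. The highest in CvP were *Cd74* with 60.6 against 19.9, *H2-Ab1* with 30.5 against 13.6 and *H2-Aa* with 30.4 against 10.8. *H2-Ab1* and *H2-Aa* were less than 3-fold higher. The mast cell markers with a row were 3, of which *Kit* had 26.3 against 1.81, *Hdc* 2.27 against 0.02 and the mast cell protease gene *Cpa3* 0 against 0.03. Among platelet markers *Ppbp* stood at 123.96 against 0.20, *Itga2b* at 2.62 against 2.03 and *Pf4* at 0.48 against 0.06, while *Gp9* was listed at 0 in both. Of 10 keratinocyte markers 4 were more than 3-fold lower in CvP, against 1.96% of expressed rows. More than 3-fold higher was 1, *Sprr1a* with 2767 against 866.04. *Krt13* and *Krt4* were lower by less, with 17549 against 47815 and 11801 against 22406. The remaining markers *Krt5*, *Trp63* and *Dsg3* were higher in CvP by less than 3-fold. They had 1505.71 against 1270.54, 62.3 against 33.6 and 209.74 against 88.96. The part of macrophages, other leukocytes and keratinocytes in the values of *Ptgs1*, *Hpgds* and *Alox5ap* was not tested.

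*Sucnr1* encodes the receptor for succinate, by which gut tuft cells sense microbial metabolism. It lies at chr3:59885791-59891488 on the plus strand and has 2 exons. Its RPKM was 0.18 in CvP (0.0774 to 0.353, about 8 reads) and 0.06 in Epi (0.0141 to 0.200, about 3 reads). The ratio of 3 had an interval of 0.630 to 15.4, so that no difference between the libraries was detectable at this depth. Of related receptors of its group 4 were expressed. None of these was more than 3-fold higher or lower in CvP, where 15.9% and 1.96% of expressed rows were. The nucleotide receptor genes *P2ry1*, *P2ry2* and *P2ry4* had 10.7, 19.6 and 5.82 in CvP and 7.45, 16.0 and 11.5 in Epi.

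*Chat* encodes choline acetyltransferase, the enzyme that makes acetylcholine. It lies at chr14:33221389-33279095 on the minus strand. The RPKM was 0.62 in CvP (0.465 to 0.825, about 50 reads) and 0 in Epi, where a count of 0 allows up to 0.0470. Against a floor of 3 reads in the Epi library the level was at least 16.4-fold higher in CvP, or 12.8-fold by the lower 95% limit, which also covers the counting error of the CvP reads. *Slc18a3*, the vesicular acetylcholine transporter, lies inside the *Chat* row on the same strand and had 1 read in CvP and none in Epi, an RPKM of 0.02 and 0. Cholinesterase levels were low, with *Ache* at 1.11 in CvP and 0.77 in Epi (ratio 1.44, 0.983 to 2.14). *Bche* was lower still but differed more, with 0.25 against 0.02 on 44 reads against 3 (ratio 12.5, 4.63 to 72.6). Of 9 other cholinergic genes that were expressed, 4 were more than 3-fold higher in CvP, against 15.9% of expressed rows. These were the choline transporter-like genes *Slc44a4* with 8.26 against 0.12 and *Slc44a3* with 5.70 against 0.48, and the nicotinic receptor subunits *Chrnb1* with 1.86 against 0.57 and *Chrnd* with 1.07 against 0.01. The single gene more than 3-fold lower in CvP (1.96% of expressed rows) was *Slurp1*, a secreted nicotinic receptor ligand of keratinocytes, with 16.8 against 98.6.

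Nerve fibres that reach the papilla can also carry *Chat*, and neuronal genes differed between the libraries. *Uchl1* had 15.0 in CvP, *Snap25* 11.1 and *Nefl* 2.32, and the 3 were listed at 0 in Epi, whereas *Mbp* had 10.3 and 8.94 and *Tubb3* was lower in CvP with 4.58 against 40.4. In all, 4 of 7 expressed nerve and glia markers were more than 3-fold higher in CvP and 1 was more than 3-fold lower, against 15.9% and 1.96% of expressed rows. The list summed to 53.9 and 52.6. *Uchl1* and *Snap25* are also expressed by type III taste cells. Of markers of muscle, whose endplates use *Chrnb1* and *Chrnd*, 6 of 6 expressed ones were more than 3-fold lower in CvP, against 1.96% of expressed rows. *Mylpf*, *Acta1* and *Tnnt3* had 1.63, 0.86 and 0.75 in CvP. The endplate receptor genes *Chrna1* and *Chrne*, which were not expressed by this measure, had 0.12 and 0.02 in CvP and 0.02 each in Epi. The part of muscle in the values of *Chrnb1* and *Chrnd* was not tested. The part of nerve fibres in the value of *Chat* was not tested.

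The order of levels within each library was read from the overlap of the intervals. In CvP it was *Avil*, *Vil1*, *Espn*, *Ptgs1*, *Alox5ap*, *Hpgds*, *Chat*, *Dclk1* and *Sucnr1*. Neighbours were apart beyond counting error except *Alox5ap* and *Hpgds*, and *Dclk1* and *Sucnr1*, whose intervals overlapped. *Avil* made up 59.0% of the summed RPKM of 141.66, and it was 2.67-fold above *Vil1*, which was 2.75-fold above *Espn*. In Epi the order was *Ptgs1*, *Avil*, *Alox5ap*, *Espn*, *Hpgds*, *Sucnr1*, *Vil1*, *Dclk1* and *Chat*. There, *Alox5ap*, *Espn* and *Hpgds* overlapped from neighbour to neighbour, as did the last 4. Between the libraries the 3 actin genes thus changed places with *Ptgs1*, and *Vil1* fell from the second place to the seventh.

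Levels of different genes depend on the length by which reads are divided. The deposited length of *Avil* is 8.383 kb, 2.76 times the 3.033 kb of its longest coding transcript, and the lengths of *Vil1*, *Espn*, *Ptgs1* and *Dclk1* exceed their transcripts 2.97, 2.72, 1.86 and 1.66 times. The read counts printed with the levels use the shorter of the 2 lengths, which keeps the intervals wide. By the deposited length the CvP reads would number 19899 for *Avil*, 8269 for *Vil1*, 3165 for *Espn*, 1275 for *Ptgs1* and 126 for *Dclk1*. Low values of rows with such lengths came out as whole reads in 77.6% of 49 CvP and 60.4% of 48 Epi values by the deposited length. Evenly spread values would do so in 39.8% and 42.6%. By the transcript the shares were 18.4% and 39.6%, where evenly spread values would give 24.0% and 26.8%. When the reads by the deposited length are divided by the transcript length, the CvP order was the same. The RPKM values were then 231 for *Avil*, 93.1 for *Vil1*, 31.0 for *Espn*, 15.6 for *Ptgs1* and 0.563 for *Dclk1*. That value of *Dclk1* lies within the interval of *Chat*, 0.465 to 0.825, so by this length these 2 genes were not apart beyond counting error. In Epi *Espn* then stood above *Alox5ap* and *Vil1* above *Sucnr1*. The ratios between the libraries do not depend on this length.

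Genes with the most similar pair of values were sought for each of the 9 as the smallest distance in log2(RPKM + 0.1) over the 2 libraries. With 2 points this is a likeness of levels alone. For *Vil1* the nearest gene was *B3galt5*, a galactosyltransferase, with 32.6 in CvP and 0.04 in Epi at a distance of 0.12, and 6 rows lay within a distance of 0.5. For *Espn* it was *Dpysl3* with 11.8 and 0.41 (15 rows), and for *Ptgs1* the kinase gene *Ptk6* with 8.38 and 19.4 (55 rows). No row lay within 0.5 of *Avil*, and its nearest was the sialyltransferase gene *St3gal4* with 62.0 and 2.70 at 0.52. The low genes had many such neighbours, with *Hectd2* nearest to *Dclk1*, *Mir429* to *Hpgds*, *Neu3* to *Alox5ap*, *2810429I04Rik* to *Sucnr1* and *Tdrkh* to *Chat*, and from 107 rows within 0.5 of *Hpgds* to 430 within 0.5 of *Sucnr1*.

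Set beside other genes known from tuft cells, the 9 were mixed in level. Of 24 further tuft genes that were expressed, 20 were more than 3-fold higher in CvP and 1 more than 3-fold lower, against 15.9% and 1.96% of expressed rows. Their median log2 ratio was 4.31, or 4.51 with genes unread in Epi at their lower bounds. The taste list holds *Gnat3*, *Trpm5*, *Plcb2* and *Pou2f3* as well, the leukocyte list holds *Ptprc*, and the eicosanoid list holds *Ltc4s* and *Alox5*. Of the higher ones, the simple epithelial keratin genes *Krt18* and *Krt8* had 161 against 0.62 and 112.64 against 0.36, and *Lrmp*, an endoplasmic reticulum protein, had 93.3 against 0.68. The taste cascade genes *Gnat3*, *Trpm5* and *Plcb2* had 127.11, 37.8 and 70.0 in CvP and 0.03, 0.01 and 0.12 in Epi, and *Pou2f3* had 19.5 and 3.49. The transcription factor *Spib* had 7.76 against 0.04, and the G protein regulator *Rgs13* had 2.19 against 0. The cytokine genes were low. *Il25*, the signal by which gut tuft cells call on innate lymphoid cells, had 0.76 in CvP on 21 reads and 0 in Epi, at least 6.89-fold higher against the floor of 3 reads and 5.12-fold by the lower 95% limit, and its receptor gene *Il17rb* had 0.94 and 0.24. *Gfi1b*, a transcription factor that marks gut tuft cells, was at 0.02 and 0, and *Nmu*, a neuropeptide gene, was lower in CvP with 15.5 against 78.5.

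Markers of the taste cells themselves were higher in CvP with few exceptions. Of all expressed rows, 15.9% were more than 3-fold higher in CvP and 1.96% more than 3-fold lower. For type II cells 10 of 11 markers were more than 3-fold higher, the list summed to 518 and 26.5, and *Gnat3* was followed by *Gnb3* with 104.07 and *Gng13* with 77.4 in CvP. For type III cells 9 of 9 were more than 3-fold higher, led by *Pkd1l3* with 47.6, *Otop1* with 20.1 and *Pkd2l1* with 16.8. Among the 4 markers of type I cells 3 were more than 3-fold higher, *Entpd2* with 54.8, *Kcnj1* with 13.5 and *Oxtr* with 2.64, and 1 was more than 3-fold lower, the glutamate transporter gene *Slc1a3*. By these RPKM values *Avil* at 83.5 was in the range of *Gnat3*, *Gnb3* and *Gng13*. *Dclk1* at 0.34 lay below every listed marker of the 3 types of taste cell with a row except *Tph1*. That type III marker had 0.02 in CvP on 1 read. The deposited length that RPKM divides by is 9.468 kb for *Gnat3*, against 1.289 kb for its longest coding transcript. For *Gnb3* the 2 lengths are 3.026 and 1.846 kb and for *Gng13* 0.904 and 0.719 kb. The order of *Avil* among these genes therefore depends on the length used. Which of these cells carried a given transcript was not tested in these pooled tissues.

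**Figure D4:**
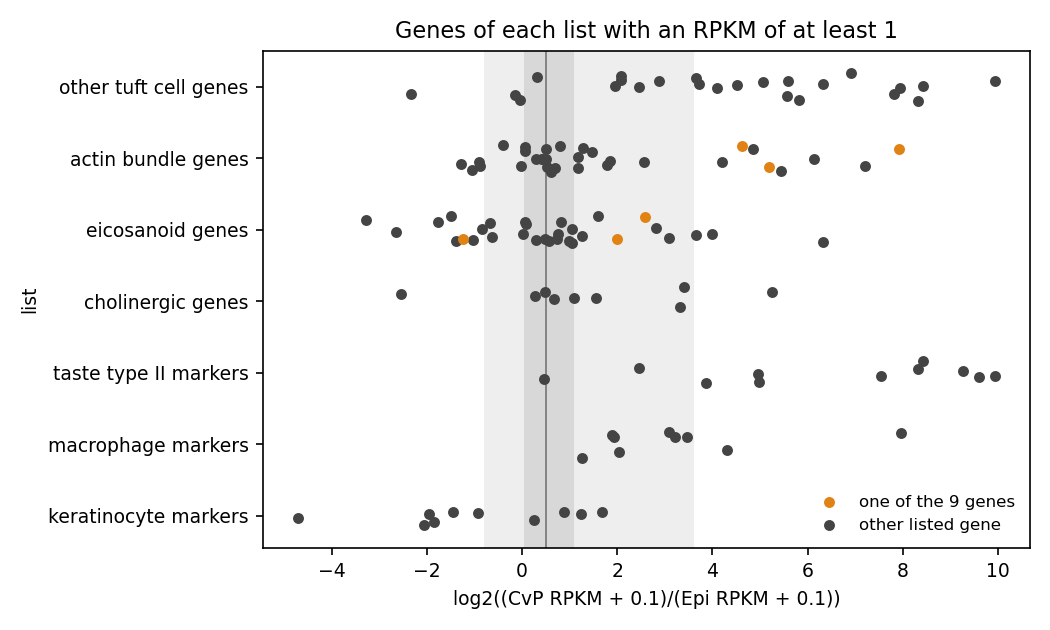
Log2 of the CvP/Epi ratio, with 0.1 added to both RPKM values, of the 9 genes (orange, those expressed) and of the expressed genes of related lists (dark points, spread vertically for clarity), over bands for the 5th to 95th (light) and 25th to 75th (dark) percentile of all expressed rows and a line at their median of 0.50. Other tuft genes and type II markers lie mostly right of the bands, while eicosanoid and actin bundle genes spread to both sides of the line.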

How the data were processed

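Poly(A)+ RNA of 2 pooled tissues was sequenced as 1 library each. The authors aligned reads to NCBI37/mm9 with Bowtie 0.12.7, per the submitters' processing notes, and deposited RPKM values from ERANGE with 2 decimals, a gene length and a position per row. How ERANGE was set and whether strand was used are not given in the sources used here, and the deposited ratio column was not used. Values were read with Python 3.11.15, pandas 2.3.3 and scipy 1.17.1. The ratio of RPKM values carried no pseudocount, and log2 ratios used 0.1. Depth was read from the step between RPKM values of the 163 rows of 0.1 kb. Reads were then estimated from RPKM, depth and the shorter of the deposited length and the longest coding GENCODE transcript, and gave exact Poisson (levels) and Clopper-Pearson (ratios) 95% intervals, which cover counting error only. The shorter length was kept as the wider choice, although low values of rows with long deposited lengths came out whole more often by the deposited length. Evenly spread values would also come out whole more often by that length. In rows of up to 0.5 kb with under 20 reads, 96.4% of 331 CvP and 97.4% of 308 Epi values were whole reads within 0.1. A gene without reads was set against a floor of 3 reads per library. The steps were tested on simulated data.

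The 9 genes and the 18 gene and marker lists (other tuft cell, eicosanoid, cholinergic, actin bundle, doublecortin and succinate receptor genes, and markers of 12 cell types) were chosen with earlier results of these data known, and 35 list entries had no row used here. Named are the 9 genes, their main partners whatever their value (*Oxgr1*, *Slc5a7* and *Hmx2* were not analysed here), up to 4 genes per direction of each list and 3 per marker list by level, the nearest gene and overlapping genes. *Cdhr2*, *Cdhr5*, *Ush1c*, *Myo1a*, *Myo7b*, *Ptger1*, *Pla2g10*, *Ltb4r1*, *Nefl*, *Tubb3*, *Otof*, *Cdh17*, *Apoa1*, *Gp9*, *Slc1a3*, *Dcdc2b*, *Chrna1*, *Chrne* and the *P2ry* genes were named after their values were seen. So were *Tph1*, *Krt5*, *Trp63*, *Dsg3*, *Bche*, *Chrm3*, *Chrm4*, *Chrm5*, *Chrna10* and *Chrnb2*. Upstream sequences were taken from RefSeq (GRCm38.p6) and placed on NCBI37/mm9 by exact match.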

Additional observations from a re-analysis of the deposited data

How the results depend on the processing

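With 1 library per tissue no value had a replicate check, and the intervals leave out variation between animals, dissections and library preparations. Reads in Epi limit the ratios of *Vil1*, *Dclk1*, *Sucnr1* and *Chat*, and reads estimated from the deposited length would give *Vil1* an interval of 516 to 2356 in place of 312 to 4425. No paired analysis was possible because the design held a single library for each tissue, and no result came from a test. Of the 9 genes, 5 met both criteria when the minimum CvP RPKM was 1 in place of 10, and 2 did at a minimum of 20 and after all levels in CvP were divided by the median ratio of 1.31, where *Espn* no longer passed. With a pseudocount of 1, 3 of them kept a ratio above 3 in place of 5. *Ptgs1*, 1 gene, fell below the lower limit at a fold of 2, and also after all ratios were divided by that median ratio. The median log2 ratio of 2.59 became 4.13 with 0.01 added to each value, 1.3 with 1 added, 3.60 over the expressed genes and 2.21 after that division. Eicosanoid genes higher in CvP numbered 10 at a fold of 2 in place of 6, and those lower numbered 6 at a fold of 2 and 5 after the division in place of 3. Cholinergic genes higher in CvP numbered 2 with a pseudocount of 1 in place of 4, and actin bundle genes lower in CvP numbered 2 at a fold of 2 and 1 after the division in place of 0. These shifts follow from the settings themselves, as a larger pseudocount shrinks the ratios of low genes and a lower fold admits more genes. Levels per kilobase of the longest coding transcript were an alternative chosen after seeing the data. None of the 8 ratios of the 9 genes, nor their median, changed direction under the alternatives run.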

Other observations

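Several further genes of the tuft cell list, some of them also used by leukocytes, were singled out after their values were seen. The inhibitory receptor gene *Cd300lf* had an RPKM of 4.73 in CvP and was listed at 0 in Epi, at least 83.0-fold higher against a floor of 3 reads and 67.0-fold by the lower 95% limit. The kinase genes *Matk* and *Bmx* had 9.45 and 4.18 in CvP and 0.10 and 0.15 in Epi. *Kctd12* had 16.7 against 0.40 and the adaptor gene *Sh2d7* 3.64 against 0.41. *Ptprc*, which encodes the pan-leukocyte protein CD45 and is also read in gut tuft cells, had 1.18 against 0.23. Other listed tuft genes were level between the libraries, with *Cd24a* at 287.42 and 316.39 and *Il13ra1* at 21.0 and 21.7.

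Acetylcholine receptors were read at low levels beside *Chat*. The muscarinic receptor gene *Chrm3* had 0.68 in CvP on 38 reads and 0 in Epi, at least 12.5-fold higher against the floor and 9.65-fold by the lower 95% limit, and the nicotinic subunit gene *Chrna10* had 0.64 against 0.02. *Chrnb2* had 0.90 against 0.20, on 138 reads against 30. Some receptor genes hardly differed, with *Chrm4* at 0.03 in both libraries and *Chrm5* at 0.06 against 0.08. Apart from *Chrnb2*, values of this size rest on few reads, and none of these values has a replicate.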
